A study of Mus musculus with 11 samples.

Results

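The megakaryocyte and platelet genes described here were 9 genes taken by mouse symbol: Pf4, Ppbp, Itga2b, Itgb3, Gp1ba, Gp1bb, Gp9, Gp6 and Vwf. Each symbol matched 1 Ensembl identifier among the 51912 of the raw count table, and all 9 were among the 15703 genes that passed the filter on low counts. Their levels are given as CPM, a gene's counts scaled to one common library total with library sizes normalized by the trimmed mean of M-values (TMM), in each of 11 RNA-seq libraries.

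Bone marrow cells of C57BL/6 mice were transduced with a pair of retroviral vectors. One, MIG, carries GFP and is active from infection on. The other, idsRed, carries a red fluorescent protein, and any oncogene placed in it stays silent until Cre switches it on. The marrow carried a Rosa26-ERT2-Cre allele, which places Cre under a ubiquitous promoter and makes it active in the presence of 4-hydroxytamoxifen. CSF3R-only (4 replicates, A to D) held CSF3R T618I in MIG and an empty idsRed vector. CSF3R-first (3 replicates, A to C) held CSF3R T618I in MIG and CEBPA V314VW in idsRed. CEBPA-first (4 replicates, A to D) held CEBPA V314VW in MIG and CSF3R T618I in idsRed. During transduction the marrow was held in WEHI-conditioned medium with IL-3, IL-6 and stem cell factor. Lineage-negative cells carrying both markers were sorted, and all 3 groups were then kept for 48 hours with 4-hydroxytamoxifen and without added cytokines. The comparisons thus asked how activated CSF3R alone differed from activated CSF3R with mutant CEBPA, and whether the order of the mutations mattered. Order was bound to the vector of each mutant and to how long it had been active, so these cannot be told apart here. CEBPA-first also differed from CSF3R-only in the vector and timing of CSF3R T618I. Retroviral expression of both mutants differs from that of the endogenous genes, and the cells of a library were a sorted pool of transduced cells. Donor mice were young adults per the methods. The number of mice behind each replicate was not given in the labels, and nothing states that replicates came from separate animals, so p-values measure the spread between these libraries, which may be technical.

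Megakaryocytes are the large marrow cells that shed platelets. They stock alpha granules with chemokines and adhesion proteins and carry on their surface the receptors by which platelets stick to a damaged vessel wall and to each other. Von Willebrand factor bridges exposed collagen and the GPIb-IX complex, glycoprotein VI binds collagen itself and sends an activating signal, and the integrin alphaIIb-beta3 then binds fibrinogen and links platelets together. Some of the genes are shared with other cells: Itga2b, the CD41 antigen, also marks early progenitors and mast cells, the beta3 chain also pairs with integrin alphaV, and Vwf is also made by endothelium.

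The libraries held 47905747 to 72268346 counts in all. A count of 3 in a library corresponded to 0.0383 to 0.0648 CPM, and every count of the 9 genes was above it except in Gp6 in CEBPA-first. Libraries within a group differed beyond counting error, the chi-square over genes divided by its degrees of freedom being 9.11 to 99.1. CSF3R-first replicate A stood apart from replicates B and C, with values of 99.1 and 74.5 against 22.2 between B and C. The member calls that rest on CSF3R-first are therefore also given without it.

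Against CSF3R-only, all 9 genes were lower in CEBPA-first, by log2 fold changes of -6.78 to -1.80 with a median of -4.86. All 9 were called, a call being a Benjamini-Hochberg adjusted p under 0.05 over all tested genes, from the quasi-likelihood test of edgeR, together with a log2 fold change of at least 1 in size. Of all tested genes, 19% were called lower in this comparison and the median log2 fold change was -0.0045. In CSF3R-first the 9 genes were also all called lower than in CSF3R-only, where 4.53% of tested genes were, with log2 fold changes of -2.11 to -1.08 and a median of -1.71 (all tested genes, -0.022). When a change beyond the log2 threshold of 1 was itself tested (glmTreat of edgeR), 4 of the 9 were called in this comparison, and Pf4, Ppbp, Itga2b, Gp1bb and Gp9 were not. The 4.53% does not apply to this stricter test, for which no share of all tested genes is given here. Between the orders, 8 of the 9 were called lower in CEBPA-first than in CSF3R-first, against 10.3% of tested genes, with a median log2 fold change of -3.08. Itga2b was the exception. Without CSF3R-first replicate A, 8 members were called against CSF3R-only and all 9 between the orders. The comparisons share samples in pairs and are not independent of each other. The members, and the gene lists below, were chosen with earlier results of these data known, so counts over them are descriptions. A log2 fold change of -3 or lower was reached in CEBPA-first against CSF3R-only by 8 of the 9 genes and by 3.34% of tested genes. In CSF3R-first against CSF3R-only none of the 9 reached it (0.0828% of tested genes did), and between the orders 5 did (1.24%). In these bulk libraries, fewer cells of the megakaryocyte lineage and less RNA per cell cannot be told apart.

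**Figure D1:**
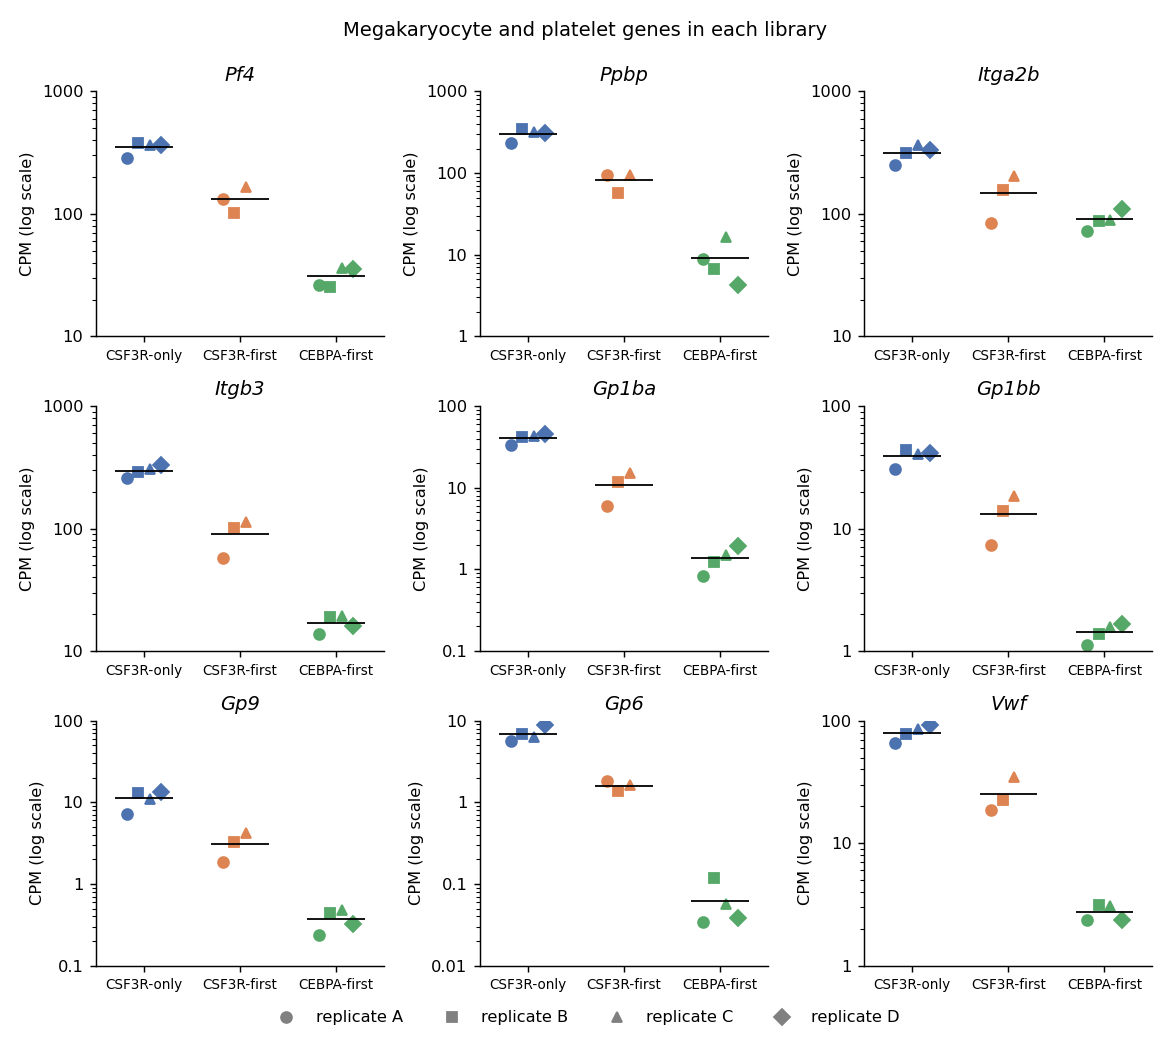
CPM on a log axis of each of the 9 genes in each of the 11 libraries. Points are libraries, marker shapes are replicate letters and horizontal bars are group means. CSF3R-only lay above both other groups for every gene, and CSF3R-first lay between the other groups for every gene but Itga2b, whose replicate A fell among the CEBPA-first libraries.

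The promoters of the genes are shown because these genes fell together. RefSeq windows of GRCm38.p6 were given for 7 of the 9 (Pf4, Ppbp, Itga2b, Gp1ba, Gp1bb, Gp9 and Gp6), and the 250 bases before each start site were searched on both strands for letters known from haematopoietic factors. The GATA motif was AGATAA, a single form of the letters that GATA factors bind, and other forms were not searched. The ETS motif was AGGAAG. The RUNX motif was TGTGGT, and the motif of C/EBP proteins was TTGCNNAA. No match overlapped another. Printed below, 5′ to 3′ on the strand of the gene, are the 5 windows that hold no annotated exon, with motif matches on either strand in capitals: Pf4 at chr5:90772185-90772434 (plus strand), Ppbp at chr5:90768268-90768517 (plus), Gp1ba at chr11:70638872-70639121 (plus), Gp9 at chr6:87777820-87778069 (plus) and Gp6 at chr7:4397745-4397994 (minus).
Pf4: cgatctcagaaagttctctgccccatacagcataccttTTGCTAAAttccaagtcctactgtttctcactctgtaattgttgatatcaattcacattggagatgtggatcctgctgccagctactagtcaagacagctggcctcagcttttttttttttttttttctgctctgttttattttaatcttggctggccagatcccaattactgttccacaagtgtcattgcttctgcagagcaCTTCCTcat
Ppbp: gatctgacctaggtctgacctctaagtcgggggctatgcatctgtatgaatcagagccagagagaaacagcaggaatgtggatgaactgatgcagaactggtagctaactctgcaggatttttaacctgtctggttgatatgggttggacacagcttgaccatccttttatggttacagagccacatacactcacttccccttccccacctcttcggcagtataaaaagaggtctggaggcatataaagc
Gp1ba: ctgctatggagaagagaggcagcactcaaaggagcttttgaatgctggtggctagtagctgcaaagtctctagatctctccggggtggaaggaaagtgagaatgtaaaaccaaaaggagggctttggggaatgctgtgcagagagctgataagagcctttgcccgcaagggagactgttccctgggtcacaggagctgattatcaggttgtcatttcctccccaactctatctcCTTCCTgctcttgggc
Gp9: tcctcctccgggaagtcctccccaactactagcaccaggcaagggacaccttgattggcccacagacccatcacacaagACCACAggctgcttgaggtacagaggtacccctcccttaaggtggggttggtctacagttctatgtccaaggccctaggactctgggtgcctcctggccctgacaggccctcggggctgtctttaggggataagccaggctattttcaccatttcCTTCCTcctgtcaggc
Gp6: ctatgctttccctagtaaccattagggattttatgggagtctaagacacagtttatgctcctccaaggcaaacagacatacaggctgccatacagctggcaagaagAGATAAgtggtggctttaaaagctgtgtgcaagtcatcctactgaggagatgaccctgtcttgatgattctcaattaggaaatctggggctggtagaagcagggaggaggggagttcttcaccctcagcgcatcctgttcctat

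An ETS match was in 4 of the 7 windows, those of Pf4, Gp1ba, Gp9 and Itga2b, and in 29.5% of the 32851 windows of the same length in the table. In Pf4 it ended 4 bases before the start site, and in both Gp1ba and Gp9 11 bases before it. The letters AGATAA were in 1 window, that of Gp6, and in 9.99% of all windows. The related letters TGATAA, which stand in lower case in the printed Gp1ba window on both strands, were not counted. RUNX letters were in that of Gp9 (14.0% of all windows) and C/EBP letters in that of Pf4 (9.56%). The windows of Ppbp and Gp1bb held none of the 4. A match describes letters and is no evidence that a factor binds there.

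Pf4 and Ppbp encode platelet factor 4 and pro-platelet basic protein, CXC chemokines that are stored in alpha granules and released on activation. Both lie on the plus strand of chromosome 5 of GRCm38, Ppbp from 90768518 to 90770063 and Pf4 (ENSMUSG00000029373) from 90772435 to 90773383, with 2.37 kb between them. Pf4 was at 288, 381, 365 and 366 CPM in CSF3R-only replicates A to D, at 131, 102 and 165 CPM in CSF3R-first A to C, and at 26.4, 25.3, 36.4 and 35.5 CPM in CEBPA-first A to D. The 3 groups did not overlap. The log2 fold change against CSF3R-only was -1.39 in CSF3R-first (standard error 0.17, edgeR adjusted p = 9.52e-05) and -3.50 in CEBPA-first (standard error 0.17, edgeR adjusted p = 3.05e-09), and that between the orders was -2.11.

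Ppbp (ENSMUSG00000029372) was at 235, 349, 322 and 310 CPM in CSF3R-only, 95.5, 57.0 and 95.6 CPM in CSF3R-first, and 8.90, 6.68, 16.4 and 4.21 CPM in CEBPA-first. These groups did not overlap either, and the CEBPA-first libraries spread more widely, with replicate C highest and D lowest. Its log2 fold changes were -1.88 in CSF3R-first (standard error 0.34, edgeR adjusted p = 0.0011) and -5.08 in CEBPA-first (standard error 0.36, edgeR adjusted p = 7.46e-08), and -3.21 between the orders. By group means it was 33.6-fold below CSF3R-only in CEBPA-first, where Pf4 was 11.3-fold lower.

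Itga2b (ENSMUSG00000034664), the alphaIIb chain, lies on the minus strand of chromosome 11 from 102453297 to 102470122. It was at 250, 311, 366 and 333 CPM in CSF3R-only, 84.4, 158 and 206 CPM in CSF3R-first, and 72.9, 87.9, 89.1 and 111 CPM in CEBPA-first. CSF3R-only lay above both other groups, and CSF3R-first replicate A fell inside the CEBPA-first range while B and C lay above it. The log2 fold changes were -1.08 in CSF3R-first (standard error 0.24, edgeR adjusted p = 0.0036) and -1.80 in CEBPA-first (standard error 0.22, edgeR adjusted p = 8.76e-06). Between the orders it was -0.73 (standard error 0.23, edgeR adjusted p = 0.021), short of the fold change threshold. Both values near the threshold turned on single libraries. Without CSF3R-first replicate A the first was -0.79 and the last -1.01, and without CSF3R-only replicate C the first was -0.999 and just missed the threshold.

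Itgb3 (ENSMUSG00000020689), the beta3 chain, lies on the plus strand of chromosome 11 from 104608000 to 104670476. Its levels were 259, 290, 305 and 333 CPM in CSF3R-only, 57.8, 100.5 and 114 CPM in CSF3R-first, and 13.8, 19.1, 19.1 and 16.01 CPM in CEBPA-first, with no overlap between groups. It changed more than its partner: the log2 fold changes were -1.71 in CSF3R-first (standard error 0.19, edgeR adjusted p = 5.31e-05), -4.12 in CEBPA-first (standard error 0.20, edgeR adjusted p = 2.63e-09) and -2.41 between the orders. By group means, Itgb3 was 17.4-fold and Itga2b 3.49-fold below CSF3R-only in CEBPA-first.

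GPIb-IX, the receptor for von Willebrand factor, was followed through 3 subunits. Gp1ba (ENSMUSG00000050675; chromosome 11, plus strand, 70639122 to 70642036) encodes the ligand-binding alpha chain. It was at 32.9, 41.5, 43.0 and 45.4 CPM in CSF3R-only, 5.91, 11.7 and 15.2 CPM in CSF3R-first, and 0.839, 1.24, 1.48 and 1.95 CPM in CEBPA-first. All 3 groups were apart. Its log2 fold changes were -1.89 in CSF3R-first (standard error 0.27, edgeR adjusted p = 0.00027), -4.86 in CEBPA-first (standard error 0.29, edgeR adjusted p = 2.01e-08) and -2.97 between the orders.

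Gp9 (ENSMUSG00000030054; chromosome 6, plus strand, 87778072 to 87779768) encodes the small subunit GPIX. It was at 7.28, 12.996, 11.1 and 13.3 CPM in CSF3R-only, 1.85, 3.28 and 4.19 CPM in CSF3R-first, and 0.240, 0.443, 0.480 and 0.319 CPM in CEBPA-first. No library crossed into another group, although the CEBPA-first values rest on 90 counts in all. The log2 fold changes were -1.84 in CSF3R-first (standard error 0.27, edgeR adjusted p = 0.00033), -4.93 in CEBPA-first (standard error 0.31, edgeR adjusted p = 2.65e-08) and -3.08 between the orders.

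Gp1bb (ENSMUSG00000050761; chromosome 16, minus strand, 18620317 to 18622403) encodes the beta chain, which is disulfide-linked to the alpha chain. It was at 30.6, 43.5, 40.3 and 41.0 CPM in CSF3R-only, 7.35, 13.8 and 18.5 CPM in CSF3R-first, and 1.13, 1.36, 1.57 and 1.65 CPM in CEBPA-first. The groups did not overlap, and the log2 fold changes were -1.55 (edgeR adjusted p = 0.00039), -4.76 (edgeR adjusted p = 8.31e-09) and, between the orders, -3.21. Its counts are uncertain, since Sept5 and Gm49601 overlap it on the same strand and leave 7.14% of its exonic sequence to it alone. Sept5 itself had log2 fold changes of -1.17 in CSF3R-first and -3.24 in CEBPA-first against CSF3R-only. The exons of the other 8 genes overlap no other gene, and their longest transcripts had no stretch of 100 bases at 97% identity in a transcript of another gene.

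Gp6 (ENSMUSG00000078810; chromosome 7, minus strand, 4363965 to 4397744) encodes glycoprotein VI, the collagen receptor. It was at 5.66, 6.93, 6.29 and 8.73 CPM in CSF3R-only, 1.81, 1.37 and 1.61 CPM in CSF3R-first, and 0.0342, 0.119, 0.0576 and 0.0383 CPM in CEBPA-first. The CEBPA-first libraries held 2, 7, 3 and 3 counts, a sum of 15 with an exact 95% Poisson interval of 8.40 to 24.7, so its level there was at or near the floor in 3 of 4 libraries. Its fitted log2 fold changes were the lowest of the 9 genes, at -2.11 in CSF3R-first (standard error 0.21, edgeR adjusted p = 2.04e-05), -6.78 in CEBPA-first (standard error 0.28, edgeR adjusted p = 9.62e-10) and -4.66 between the orders. By group means it was 111-fold below CSF3R-only in CEBPA-first, with bounds of 67.1 and 198 from the counting error of the 15 counts alone. In that comparison its fitted log2 fold change had rank 14 from the lowest among the 15703 tested, a rank that rests on the same few counts and is not exact.

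Vwf (ENSMUSG00000001930; chromosome 6, plus strand, 125546774 to 125686679) encodes von Willebrand factor. It was at 65.2, 77.7, 85.0 and 92.0 CPM in CSF3R-only, 18.5, 22.3 and 34.4 CPM in CSF3R-first, and 2.38, 3.12, 3.07 and 2.35 CPM in CEBPA-first, and the groups did not overlap. The log2 fold changes were -1.67 in CSF3R-first (standard error 0.19, edgeR adjusted p = 5.11e-05), -4.88 in CEBPA-first (standard error 0.20, edgeR adjusted p = 9.86e-10) and -3.21 between the orders. Endothelial and stromal markers are given beside it, as endothelium also makes Vwf. Cdh5, which encodes VE-cadherin, was at no more than 0.0216 CPM in any library and Emcn at no more than 0.0403 CPM, and Col3a1 and Cxcl12 had no count. The summed level of the 11 endothelial and stromal markers, most of it Pecam1, was 140.03 to 147 CPM in CSF3R-only, 139.7 to 157 CPM in CSF3R-first, then 159 to 179 CPM in CEBPA-first. Of the 7 tested, 3, 1 and 1 were called lower in CEBPA-first against CSF3R-only, in CSF3R-first against CSF3R-only and between the orders. The shares of all tested genes were 19%, 4.53% and 10.3%. In the first comparison the median log2 fold change of the 7 was -1.02. Among those called lower was Tie1, and the others are not named here. The mean level of Tie1 went from 2.46 CPM in CSF3R-only through 1.07 CPM to 0.129 CPM in CEBPA-first. The means of Kdr (3.24, 2.42 and 4.44 CPM), Tek (1.99, 1.22 and 2.10 CPM) and Pecam1 (129, 136 and 159 CPM) did not follow that course. The part of endothelial RNA in the level of Vwf was not tested.

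**Figure D2:**
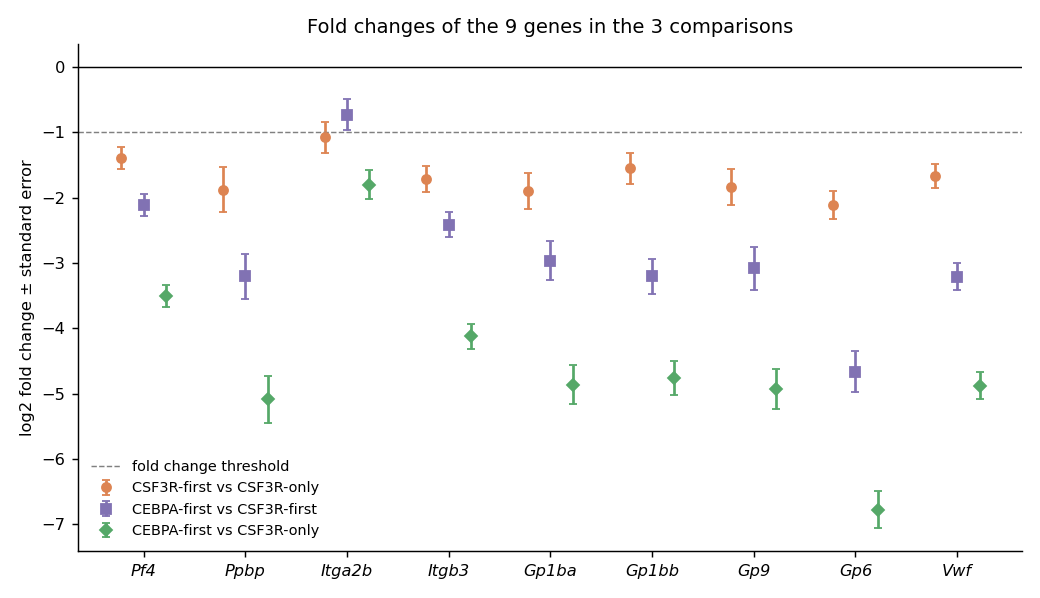
Log2 fold changes of the 9 genes from edgeR's quasi-likelihood fit in the 3 comparisons, with standard errors as bars. The dashed line marks the fold change threshold at -1. Each gene lay lower in CEBPA-first against CSF3R-only than in CSF3R-first against CSF3R-only, and Itga2b had the smallest changes.

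Beside the share of tested genes whose groups did not overlap and were lower, the members stood as follows. In CEBPA-first against CSF3R-only no member overlapped (34.5% of tested genes were lower without overlap), in CSF3R-first against CSF3R-only none did (21.4%), and between the orders 8 of 9 did not (24.8%).

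Per kilobase of exon, the order of mean levels in CSF3R-only was Pf4 (485 CPM per kb), Ppbp (281), Itga2b (57.8), Itgb3 (50.3), Gp1bb (18.6), Gp1ba (14.97), Gp9 (12.7), Vwf (4.98) and Gp6 (1.17). In CEBPA-first Pf4 was still first at 42.9 CPM per kb, but Itga2b came second at 16.5, ahead of Ppbp at 8.36 and Itgb3 at 2.89. Itga2b lay above Itgb3 in each of the 4 CSF3R-only libraries, by ratios of 1.04 to 1.296, and the 3 GPIb-IX genes lay close together. The Gp1bb value carries the uncertainty of its counts given above. Lengths were all annotated exon bases, 5454 for Itga2b and 5901 for Itgb3, while their longest transcripts hold 3437 and 5784. Per-kilobase levels and ratios thus depend on the length chosen, but differences in a ratio between groups do not.

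The per-length ratio of Itga2b to Itgb3 in CSF3R-only was 1.15 ± 0.112 (SD, n = 4), against 1.75 ± 0.193 (n = 3) in CSF3R-first, then 5.80 ± 1.17 (n = 4) in CEBPA-first. The groups did not overlap. On the log2 scale the CEBPA-first ratio was higher than that in CSF3R-only by 2.32 (two-sided exact permutation p = 0.0286, the smallest that 4 against 4 allows, 0.107 after Benjamini-Hochberg adjustment over 15 ratio comparisons). Pf4 to Ppbp went from 1.74 ± 0.0848 through 2.45 ± 0.339 to 6.53 ± 4.198, also without overlap, and the log2 difference between CEBPA-first and CSF3R-only was 1.72 (exact permutation p = 0.0286, adjusted 0.107). With 3 against 4 the exact test cannot go below 0.0571, the value for both ratios in each comparison with CSF3R-first. None of the 15 passed after adjustment.

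Within GPIb-IX the ratios overlapped between groups. Gp1ba to Gp9 was 1.21 ± 0.191, 1.12 ± 0.0738 and 1.26 ± 0.493 in the 3 groups in the same order, and Gp1bb to Gp9 was 1.504 ± 0.203, 1.77 ± 0.0915 and 1.71 ± 0.437. The Gp1bb ratio is uncertain, since other genes overlap most of its exonic sequence. No comparison of either passed the test (exact permutation p of 0.114 to 0.971). Itgb3 to Gp9 was 4.12 ± 0.861, 4.43 ± 0.332 and 7.13 ± 1.19, and CEBPA-first did not overlap the other groups. These ratio comparisons were chosen after the levels were seen.

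**Figure D3:**
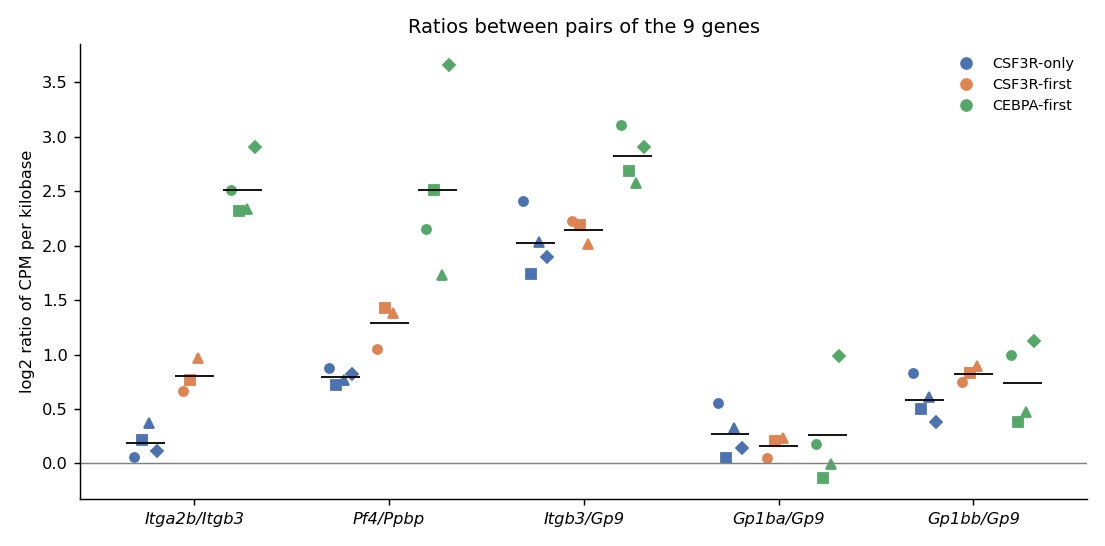
Log2 ratios of CPM per kilobase between pairs of the 9 genes in each library, with colours for the groups, marker shapes for the replicate letters and bars for group means. Itga2b to Itgb3 and Pf4 to Ppbp were apart in all 3 groups, whereas both ratios within GPIb-IX overlapped. The Gp1bb ratio is uncertain because other genes overlap Gp1bb.

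The place of each CSF3R-first library between the other groups was read on a log2 scale on which the CSF3R-only mean is 0 and the CEBPA-first mean is 1. Over the 9 genes the median positions of replicates A, B and C were 0.504, 0.376 and 0.306. Over all 4244 genes called in CEBPA-first against CSF3R-only (27% of those tested, either direction), the order was different, at 0.280, 0.528 and 0.456. Replicate A was thus the library nearest to CSF3R-only over called genes and the farthest from it over the members. It was farthest in 6 of the 9 genes: Itga2b at 1.04, Itgb3 at 0.571, Gp1ba at 0.565, Gp9 at 0.529, Gp1bb at 0.504 and Vwf at 0.432. For the chemokines and the collagen receptor replicate B was farthest, with Pf4 at 0.503, Ppbp at 0.459 and Gp6 at 0.368.

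Neutrophil and monocyte markers had another order than the members. Neutrophil markers called in CEBPA-first against CSF3R-only had median positions of 0.240, 0.595 and 0.548 in replicates A, B and C, and monocyte and macrophage markers 0.158, 0.628 and 0.539. Erythroid markers, with 0.409, 0.136 and -0.075, had replicate A highest as the members did. The positions are descriptions of 3 libraries and were not tested.

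**Figure D4:**
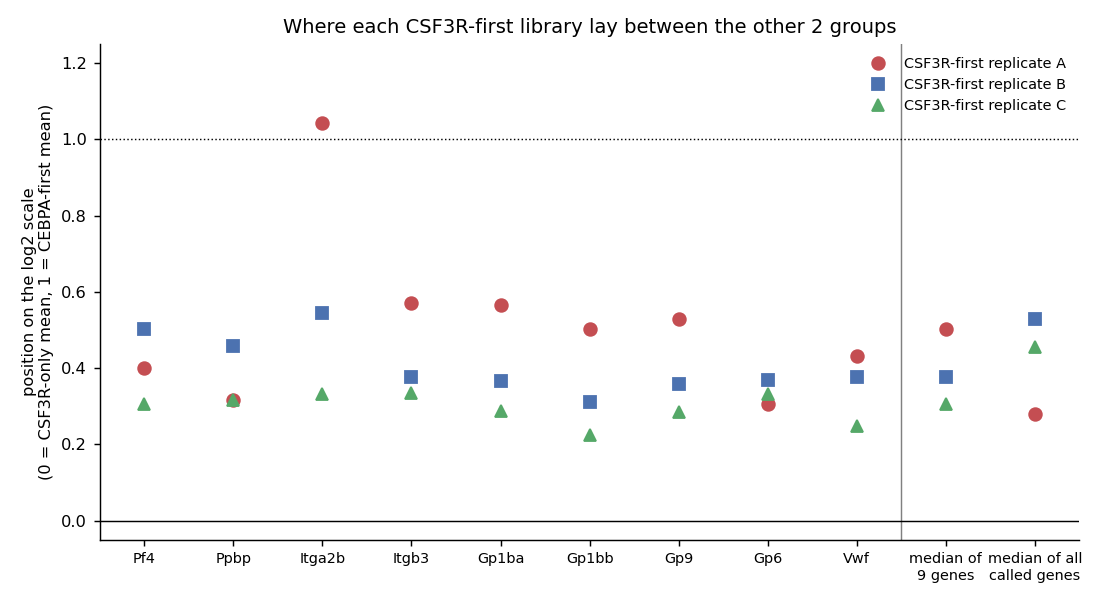
Position of each CSF3R-first library on the log2 scale, 0 being the CSF3R-only mean and 1 the CEBPA-first mean, for the 9 genes, for their median and for the median of the 4244 genes called in CEBPA-first against CSF3R-only. Replicate A lay highest for the integrin chains, GPIb-IX and Vwf, and lowest for the median of all called genes.

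The genes were also compared by how they varied between replicates, which includes the deviations of CSF3R-first replicate A given above. After the group means were removed, Pearson's r over the 11 libraries was 0.63 to 0.96 among the 6 genes Itga2b, Itgb3, Gp1ba, Gp1bb, Gp9 and Vwf, with the highest value for Itga2b and Gp1bb. Gp6 had r of -0.055 to 0.45 with these 6, Ppbp -0.20 to 0.37 and Pf4 0.24 to 0.53. Pf4 and Ppbp had an r of 0.41 with each other, Ppbp and Gp6 of 0.19 and Pf4 and Gp6 of -0.0078. The points share libraries and normalization, and the values are given as a description.

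Among 10937 genes at an average of at least 1 log2 CPM, those most like each member over the 11 libraries by Pearson's r of log2 CPM included members of the wider platelet lists. Gp5, the remaining subunit of the GPIb-IX-V complex, was most like Itgb3 and most like Gp9 (r = 0.998 for both). The gene most like Gp1bb was Rbpms2 (r = 0.999), that most like Vwf was Timp3 (0.999), and that most like Gp1ba was Rasal1 (0.997). Col18a1 came first for Itga2b (0.996), Rnf128 for Pf4 (0.995), Gm13431 for Ppbp (0.995) and Gja1 for Gp6 (0.992). Most of each r comes from the steps between the 3 groups.

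Around the 9 genes, 81 other genes were listed in 7 groups, 6 of platelet biology and 1 of CXC chemokines and receptors. Of the 81, 79 passed the filter on low counts. Of these, 48 were called lower in CEBPA-first against CSF3R-only, 25 in CSF3R-first against CSF3R-only and 29 between the orders, and every call was in that direction. Of all tested genes, 19%, 4.53% and 10.3% were called lower in these comparisons. Median log2 fold changes were -1.30, -0.65 and -0.60. The lists differed widely in how many of their genes were called. Among the 48, 5 were CXC chemokine or receptor genes, and several of the listed genes are also expressed by other myeloid cells.

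Among 19 surface receptors, 16 were called lower in CEBPA-first, 12 in CSF3R-first and 10 between the orders. Treml1, a receptor of alpha granule membranes, was at 11.1 to 15.2 CPM in CSF3R-only, 3.02 to 4.79 in CSF3R-first, then 0.171 to 0.461 in CEBPA-first, with log2 fold changes against CSF3R-only of -1.82 and -5.49. Clec1b, the podoplanin receptor CLEC-2, had log2 fold changes of -2.04 and -4.71. Itga6, expressed well beyond platelets, had the highest mean CPM of the list over the 11 libraries and was not called, at -0.21 and -0.73. In CSF3R-only the tetraspanin gene Cd9 was above it, with a mean of 231 CPM against 219 CPM, and Cd9 was called lower in CEBPA-first at a mean of 27.2 CPM (log2 fold change -3.09, edgeR adjusted p = 1.25e-10). For Treml1 and Clec1b the edgeR adjusted p against CSF3R-only was at most 5.11e-05.

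Alpha granule and secreted proteins were called lower in 9 of 13 genes in CEBPA-first, 5 in CSF3R-first and 7 between the orders. The leading ones were Clu, which encodes clusterin, at log2 fold changes of -5.34 in CEBPA-first and -2.09 in CSF3R-first, Sparc at -5.07 and -1.49 from at most 2.46 CPM and with only 11 counts in all of CEBPA-first, and Mmrn1, which encodes multimerin, at -4.56 and -1.79. F13a1, the A chain of coagulation factor XIII, is also made by monocytes and macrophages and was the most abundant of the list. It went the other way, at 2389 to 2642 CPM in CSF3R-only, 2381 to 3790 in CSF3R-first, then 3027 to 4534 in CEBPA-first, with a log2 fold change in CEBPA-first of 0.64 (edgeR adjusted p = 0.0015) that did not reach the fold change threshold.

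Genes of the platelet cytoskeleton, granule formation and eicosanoid synthesis were called lower in 10 of 12, 5 and 7 cases in the same order of comparisons. Alox12, the platelet 12-lipoxygenase, was at 4.25 to 6.35 CPM in CSF3R-only, 0.325 to 0.885 in CSF3R-first, then 0.0342 to 0.0852 in CEBPA-first. Tubb1, the beta-tubulin of the platelet marginal band, was at 2.81 to 3.63, 0.443 to 0.664 and 0.0192 to 0.0513 CPM. Their log2 fold changes in CEBPA-first were -6.36 and -6.34, and both rested on few counts there. Actn1 was at -3.02 and Flna, the most abundant of the list, at -1.17.

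Of 10 genes of the chain that signals from glycoprotein VI, 5 were called lower in CEBPA-first, and 1 in each of the other comparisons. Between the orders that share was near the 10.3% of all tested genes. For Lat, the adaptor that nucleates the signalling complex, the log2 fold change was -2.05 against CSF3R-only in CEBPA-first and -1.10 in CSF3R-first. Fcer1g, the Fc receptor gamma chain that pairs with glycoprotein VI and is used by many myeloid receptors, was at -1.51 in CEBPA-first, and Lcp2, which encodes SLP-76, at -1.30.

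Genes that activate the integrin or pair with its chains were called in 1 of 7 cases in CEBPA-first, a share near the 19% of all tested genes. The gene was Rap1b, which encodes a small GTPase, at -1.13. Tln1, which encodes talin and had the highest mean CPM of the list over the 11 libraries, though below Rap1b in CSF3R-only, was at -0.81. In CSF3R-first against CSF3R-only edgeR called 0 of the 7, with 6 at an unadjusted p under 0.05 and lower, and DESeq2 also called 0. Between the orders edgeR and DESeq2 again called 0, with 5 lower and 1 higher at an unadjusted p under 0.05.

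Transcription factors of the megakaryocyte lineage were called lower in 2 of 12 genes in CEBPA-first, a share near the 19% of all tested genes. They were Mef2c at -1.82 and Gfi1b at -1.07. Gata1, which drives both the megakaryocyte and the erythroid programme, was at 48.6 to 83.3 CPM in CSF3R-only, 23.9 to 55.2 in CSF3R-first, then 28.3 to 42.8 in CEBPA-first. Its log2 fold changes were -0.64 (edgeR adjusted p = 0.052) and -0.94 (edgeR adjusted p = 0.0021). Nfe2, needed for platelet release and highest in mean CPM over the 11 libraries, though not in CEBPA-first alone, was at -0.76 in CEBPA-first, Fli1 at -0.63 and Runx1 at 0.24. In CSF3R-first against CSF3R-only edgeR and DESeq2 each called 0 of the 12, with 6 lower at an unadjusted p under 0.05. Between the orders Mef2c alone was called (-1.10), a share near the 10.3% of all tested genes.

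Other CXC chemokines share the stretch of chromosome 5 that holds Pf4 and Ppbp: Cxcl5 ends 6.89 kb before Ppbp, and Cxcl3 starts 12.7 kb after Pf4. Of 6 chemokine and receptor genes tested, 5 were called lower in CEBPA-first, 2 in CSF3R-first and 3 between the orders. Cxcl5 was at 3.15 to 5.34 CPM in CSF3R-only and 0.487 to 1.47 in CSF3R-first, and at most 0.0511 CPM in CEBPA-first. Cxcl3, on the far side, was at a log2 fold change of -1.02, and Cxcl2, a neutrophil chemoattractant, at -3.30, both in CEBPA-first. Cxcr2, the receptor that binds the products of Ppbp and most abundant here, was at -2.92. Neutrophils also express several of these genes.

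**Figure D5:**
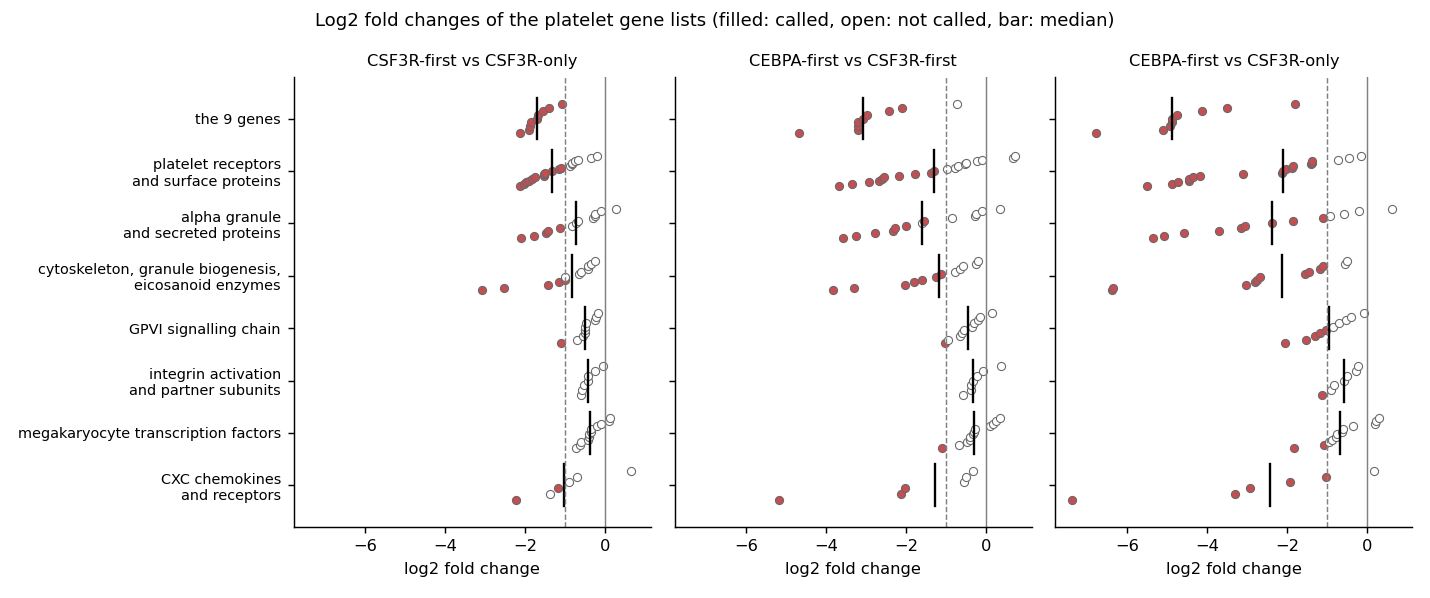
Log2 fold changes in the 3 comparisons for the 9 genes and the 7 lists of other genes. Each circle is a gene, filled where called and open where not, vertical bars are medians and the dashed line is at -1. The 9 genes had the lowest median in each comparison, and the medians of the integrin activation and transcription factor lists lay nearest to 0.

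Some marker lists of other lineages were lower where the members were lower, and others were not. Summed over the 9 genes, the level was 1175 to 1544 CPM in CSF3R-only, 404 to 654 in CSF3R-first, then 127 to 173 in CEBPA-first. The 12 neutrophil markers summed to 26460 to 32743, 14516 to 25322 and 6484 to 8594 CPM, and 11, 8 and 10 of them were called lower in CEBPA-first against CSF3R-only, CSF3R-first against CSF3R-only and CEBPA-first against CSF3R-first. Of 12 monocyte and macrophage markers, 12, 2 and 9 were called lower. Among all tested genes the shares called lower were 19%, 4.53% and 10.3% in the same order of comparisons. Mast cell and basophil markers, whose cells can carry Itga2b, summed to 2300 to 3607, 1474 to 1860 and 1671 to 2153 CPM, and 5, 3 and 2 of 11 were called lower, with Fcer1a called higher in CEBPA-first in both comparisons.

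The erythroid lineage shares a progenitor with megakaryocytes. Of 12 erythroid markers, 11 were called lower in CEBPA-first against CSF3R-only (19% of all tested genes) and 10 against CSF3R-first (10.3%). In CSF3R-first against CSF3R-only edgeR and DESeq2 each called 0, with 1 lower at an unadjusted p under 0.05, and 2 were called without CSF3R-first replicate C. All 9 members were called in that comparison. The erythroid markers summed to 327 to 507 CPM in CSF3R-only, 150 to 516 in CSF3R-first, then 47.2 to 64.2 in CEBPA-first. Of 9 stem and progenitor markers, whose cells can also carry Itga2b, 5, 2 and 4 were called lower and 3, 1 and 2 higher. Their sum was 450 to 651, 297 to 324 and 157 to 166 CPM in the 3 groups. The shares of all tested genes called lower were again 19%, 4.53% and 10.3%. In CEBPA-first against CSF3R-only 27% were called in either direction, and shares called higher are not given here. The part of these other lineages in the levels of the 9 genes was not tested.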

How the data were processed

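RNA-seq counts per gene were deposited for 11 libraries in a table of raw whole-number counts. Per the labels and the methods, the authors made libraries with the SMARTer universal low input kit, trimmed reads with Trimmomatic, aligned them with STAR to mm10 and tested with DESeq2. The counting tool used for this table and its strand setting were not given in the sources used here. Symbols came from GENCODE M21 (GRCm38) by Ensembl identifier, and 193 of 51912 identifiers had none. The members and lists were chosen with earlier results of these data known.

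Genes were filtered with filterByExpr, normalized by TMM and fitted in 1 model of the 3 groups with edgeR 4.0.16 (R 4.3.3). DESeq2, used in the study, was an alternative (1.42.0). Log2 CPM used a prior count of 2, standard errors are the log2 fold change over the square root of F, and Gp6 intervals cover counting error only. Named genes were the 9 members and, per list, up to 3 called genes with the largest change in CEBPA-first and the gene with the highest mean CPM over all libraries, while others, such as Cd9, Gata1, Fli1, Runx1, Cxcl3 and the single markers, were named after their values were seen. A gene that the rule names is not reported here. Transcripts were compared with BLAST 2.17.0. On simulated counts for 15703 genes, with 200 changed, edgeR recovered 50 of 50 genes at each of 4-, 8- and 16-fold, and 19, 30 and 25 of 50 at 2-fold in CEBPA-first against CSF3R-only, CSF3R-first against CSF3R-only and CEBPA-first against CSF3R-first. Alternatives were other normalizations, filters, tests, thresholds and samples.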

Additional observations from a re-analysis of the deposited data

How the results depend on the processing

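Every one of the 411 member fold changes under the alternatives kept its direction, and 403 kept their side of the threshold. Against a fold change of more than 1 on the log2 scale (edgeR's glmTreat), 4 of the 9 members were called in CSF3R-first against CSF3R-only, and Pf4, Ppbp, Itga2b, Gp1bb and Gp9 were not (adjusted p of 0.218, 0.134, 1, 0.211 and 0.0614). Of the other listed genes 10 were called. The share of all tested genes that passed glmTreat is not given here. By adjusted p alone, 74, 63 and 58 of the other listed genes were called in CEBPA-first against CSF3R-only, CSF3R-first against CSF3R-only and CEBPA-first against CSF3R-first, of which 4, 1 and 3 were higher. Shares of all tested genes called by adjusted p alone are not given here. The 19%, 4.53% and 10.3% above also need the fold change threshold. With each library left out in turn, 9 to 9, 8 to 9 and 8 to 9 members were called in the same order of comparisons, and 44 to 49, 21 to 25 and 28 to 32 other listed genes. Without CSF3R-first replicate A, 8 members were called against CSF3R-only and 9 between the orders, Itga2b being the gene that changed both times, and 25 and 32 other genes. With at least 10 counts in every sample Gp6 was not tested, and 8, 8 and 7 members were called. DESeq2 called 9, 9 and 8 members and 47, 25 and 29 other genes.

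Same-lettered samples of different groups had correlated deviations from the group means of r = -0.107 to 0.362 over 10 pairs. Of these, 7 were over 0.1, and 6 of the 11 samples correlated best with a sample of their own letter, a hint from the data that some letters share a source. No label says so and not every pair was over 0.1, so the block was kept as an alternative. With the letter as a replicate block, 9, 9 and 8 members and 49, 26 and 31 other genes were called. Between CEBPA-first and CSF3R-only the log2 ratio difference was 2.19 to 2.39 for Itga2b to Itgb3 and 1.34 to 1.98 for Pf4 to Ppbp with each library left out in turn. The median positions of the members in CSF3R-first replicates A, B and C, recomputed with another normalization or a prior count of 0.5 chosen after seeing the data, moved by less than the spread between replicates. Counts limit Gp6, Sparc, Alox12, Tubb1, Cxcl5 and, less so, Gp9 in CEBPA-first, and differences there below their counting error were not detectable at this depth.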
